A study of Mus musculus with 36 samples.

Results

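Skeletal muscle of old mice that carry 1 working copy of Myc (Myc+/-) was compared with skeletal muscle of old wild type mice. The comparison uses every array labelled as 24-month muscle, 6 of the 36 arrays of the series, 3 from a Myc+/- RNA pool and 3 from a wild type RNA pool. All animals were male C57Bl/6 mice aged 24 months. The Myc+/- pool held RNA of 8 mice and the wild type pool RNA of 5 mice, mixed in equal amounts, and the 3 arrays of a pool are technical repeats of the same mixture. Each genotype is therefore represented by 1 pool, and the spread between the mice was not measured. The sources used here do not give the deleted stretch of Myc, how the allele was made, or which muscles were taken. The same mice also gave liver and adipose tissue, and other mice aged 5 months gave a muscle pool of each genotype (6 wild type mice and 5 Myc+/- mice).

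Myc is a transcription factor that binds DNA with its partner Max at the sequence CACGTG, the E-box. It is best known for raising ribosome production, nucleotide synthesis and cell growth. Adult muscle fibres no longer divide and are classed as slow, with an oxidative metabolism and their own set of contractile proteins, or fast. Muscle with age can also hold more fat cells and immune cells between its fibres. The series title links lower Myc expression to a longer life and better health in age, and the comparison shows how the muscle transcriptome of such mice read late in life.

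Values are log2 expression values per probe set, so a difference of 1 is a doubling of the signal. They are relative signals of a probe set and do not rank genes by transcript number. Of 21789 probe sets with 1 gene symbol, 13073 (11896 genes) had a mean over the 12 muscle arrays above the 40th percentile, a log2 value of 6.91, and were kept. A probe set was called higher or lower where the pool means differed by at least 1.5-fold and the 3 arrays of one pool all lay above the 3 of the other. This rule describes 2 RNA mixtures and is no test of the genotypes. The array medians lay between 6.97 and 7.01, arrays correlated within a pool at means of 0.988 to 0.992, and the median SD of the 3 arrays was 0.100 in wild type and 0.0939 in Myc+/-. The summed linear signal of 14 skeletal muscle markers was 215800 to 225700 in the wild type arrays and 218600 to 226100 in the Myc+/- arrays, and 0 of the 14 were called.

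Myc itself was lower in the Myc+/- pool, as its label says. It read 9.14, 9.13 and 9.32 in the wild type arrays and 8.38, 8.27 and 8.47 in the Myc+/- arrays. The groups of arrays did not overlap, and the difference of -0.82 left the Myc+/- pool at 56.6% of the wild type level. The lower Myc was not matched by its relatives. Mycn differed by 0.29, the partner Max by -0.08 and the antagonist Mxd1 by -0.15, and Myc was the 1 called gene among 16 kept genes of the Myc network. Pvt1, the noncoding gene beside Myc, read 7.86, 7.79 and 7.95 in wild type and 8.29, 8.35 and 8.31 in Myc+/-, a difference of 0.45 that was under 1.5-fold.

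Across the transcriptome the old Myc+/- muscle held more probe sets called lower than higher. Called lower were 167 probe sets (1.28% of those kept, 162 genes) and called higher 35 (0.268%, 35 genes), with at least a 2-fold difference at 48 and 13 of them. The median difference over all kept probe sets was -0.005. The deposited arrays have near-equal medians and quartiles, so a shift shared by all genes could not be seen. With no minimum fold, the arrays of the pools did not overlap at 1651 probe sets lower in Myc+/- (12.6%) and 1116 higher (8.54%). The smallest called differences were 0.59 and -0.59.

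**Figure D1:**
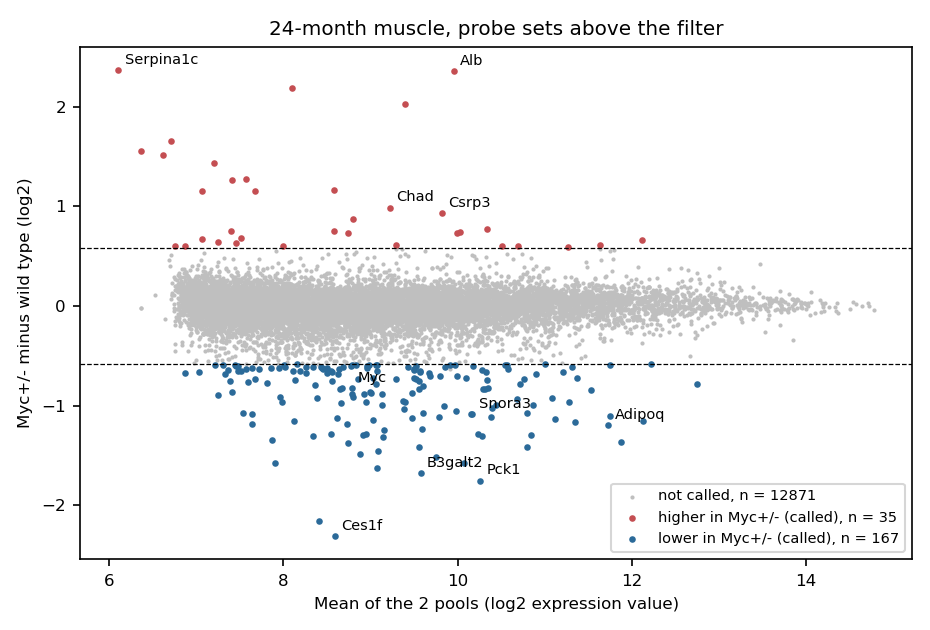
Difference between the Myc+/- and wild type pools of 24-month muscle (vertical axis, log2) against the mean of both pools (horizontal axis, log2 expression value) for the 13073 kept probe sets. Blue points are the 167 called lower in Myc+/-, red points the 35 called higher, grey points were not called, and the dashed lines mark 1.5-fold.

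Where these genes are normally made was read from the 5-month wild type pools, which the comparison does not use. Of the 167 probe sets called lower, 136 (81.4%) were at least 2-fold higher in adipose tissue than in muscle, against 8.92% of all kept probe sets. In both adipose tissue and liver, 15 of the 35 called higher (42.9%) were at least 2-fold below muscle, against 8.19% of all kept. In liver, 13 of the 35 (37.1%) stood at least 2-fold above muscle, against 9.58% of all kept. That share was alike among those called lower, at 63 of 167 (37.7%). Most of what read lower in old Myc+/- muscle was thus at a higher level in fat than in muscle. What read higher held both muscle genes and liver genes, and genes higher in liver were also in the lower set. Of the lower probe sets, 29 were under 2-fold higher in both other tissues, among them Myc, Cish, Irf4, Dkk3, Socs3 and Snora3.

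Fat cell genes gave the largest block of lower readings. All 13 kept adipocyte markers read lower in Myc+/-, none with overlapping arrays, and 10 were called, with a median difference of -0.99. Plin1, which coats the lipid droplet, read 11.61, 11.43 and 11.47 in the wild type arrays and 10.14, 10.10 and 10.03 in the Myc+/- arrays, a difference of -1.41. Adipoq, the hormone adiponectin, read 12.40, 12.31 and 12.27 against 11.13, 11.02 and 11.26 (-1.19), so the Myc+/- pool stood at 43.8% of wild type. Pparg, the master regulator of fat cell formation, differed by -0.73, Cebpa, which acts with it, by -1.14, and the fatty acid carrier Fabp4 by -0.78. The markers not called were the hormone gene Lep (-0.28), the lipase Lpl (-0.26) and Car3 (-0.07). Lpl and Car3 are also made by muscle, and adipose tissue stood 1.69 and 0.42 above muscle for them in the 5-month wild type pools, against 3.71 for Plin1. The tissue difference of Lep is not given here, and why these markers were not called was not tested. In a tissue extract, fewer cells of a type and less RNA per cell cannot be told apart.

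The same markers were near 0 in the fat of the same mice. In 24-month adipose tissue the median of the 13 adipocyte markers was 0.02 (Plin1 0.02, Adipoq 0.02), and in 5-month muscle it was -0.08. Set side by side, Plin1 in the wild type muscle pools was at 9.73 (5 months) and 11.50 (24 months), and in the Myc+/- muscle pools at 9.47 and 10.09. Retn, the adipocyte hormone resistin, stood at 10.62 and 12.71 in wild type muscle and at 10.32 and 11.55 in Myc+/- muscle. The wild type pool of 24 months was the highest of the 4 for both genes.

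Other genes that stood higher in adipose tissue than in muscle were among the largest lower differences, beside the antibody segment Igkv6-20 (-2.15). Ces1f, a carboxylesterase, read 9.70, 9.76 and 9.77 in wild type and 7.60, 7.22 and 7.49 in Myc+/-, a difference of -2.30. Pck1, which makes phosphoenolpyruvate for glycerol and glucose synthesis, read 11.05, 11.20 and 11.16 against 9.34, 9.43 and 9.38 (-1.75). The galactosyltransferase gene B3galt2 differed by -1.68, the lipid droplet galectin Lgals12 by -1.58 and Klb, the coreceptor of the hormone FGF21, by -1.57. The phosphodiesterase Pde3b differed by -1.45, the protein kinase A subunit Prkar2b by -1.42, the thyrotropin receptor Tshr by -1.37 and the lactate receptor Hcar1 by -1.34. The mitochondrial carbonic anhydrase Car5b differed by -1.52. In the 5-month wild type pools the 10 genes other than Igkv6-20 each stood at least 2-fold higher in adipose tissue than in muscle. Ces1f, Pck1, Klb and Pde3b also stood above muscle in liver, by 5.72, 4.67, 3.91 and 2.79. For Ces1f, Pck1 and Klb that was more than in adipose tissue (3.85, 4.48 and 3.57). The rest of the 10 were not higher in liver than in muscle.

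Enzymes that build fatty acids and triglycerides read lower together. Of 22 kept genes of this pathway, 19 were below 0 and 8 were called lower, 0 higher, with a median of -0.27. Fasn, the fatty acid synthase, read 12.31, 12.25 and 12.33 in wild type and 11.23, 11.19 and 11.16 in Myc+/- (-1.10). Acaca, which makes its substrate malonyl-CoA, read 10.37, 10.49 and 10.65 against 9.46, 9.40 and 9.51 (-1.05). The supply of citrate and acetyl-CoA followed, with the mitochondrial citrate carrier Slc25a1 at -0.94 and ATP citrate lyase Acly at -0.73. Triglyceride assembly was lower at the acyltransferases Agpat2 (-1.29) and Dgat1 (-0.84), and the acylglycerol enzyme Pnpla3 differed by -1.29. Thrsp, a lipogenic regulator, differed by -1.12.

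Not the whole pathway was lower. The desaturase Scd1 differed by -0.34, malic enzyme Me1 by -0.13, the desaturase Scd2 by -0.01 and Gpam, which begins glycerolipid synthesis, by 0.22, with no call. The transcription factors Srebf1 (-0.11) and Mlxipl (0.02), which drive the pathway, were not called either. In the 5-month wild type pools, adipose stood 3.29 above muscle for Fasn and 3.01 for Acaca, and 0.68 for Me1 and 0.25 for Gpam. Scd1 and Scd2 are not among these picked genes. The summed linear signal of the adipocyte markers was 63280 to 64400 in the wild type arrays and 43470 to 45010 in the Myc+/- arrays, and their part in the lipid enzyme readings was not tested. In adipose tissue of the same mice the 22 genes ran the other way, with 20 above 0 and a median of 0.28 (Fasn 0.45, Acaca 0.47, Acly 0.88), and in liver the median was -0.11 (Fasn -0.51, Acaca -0.49).

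Lipid release and droplet genes had 4 of 14 kept members called lower, Pck1, Plin1, Cidec, which enlarges lipid droplets (-1.16), and the hormone-sensitive lipase Lipe (-0.93), and a median of -0.27. Plin5, the droplet coat of oxidative muscle fibres, differed by 0.13 and Pnpla2, the first triglyceride lipase, by -0.29. Of 17 genes of cholesterol synthesis and uptake, 1 was called, the sterol sensor Insig1 (-0.70), and the median was -0.09.

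Because Myc binds the E-box, the 250 bases before the start of each gene (RefSeq, GRCm38.p6) were searched for CACGTG, which reads the same on both strands. Of 110 called-lower genes with a promoter in the table, 9 (8.18%) held it, as did 1 of 26 called-higher genes (3.85%, Fzd9), 9.97% of 9463 kept genes and 6.86% of all 27025 promoters. The lower genes thus held the E-box no more often than the genes kept, and a match is only a match of letters. The 4 holders with the largest lower differences are shown because they place this motif in the fat cell and lipid genes just described, 5′ to 3′ on the gene's strand, with the E-box in capitals.
B3galt2 (-1.68, chr1:143640447-143640696, plus strand, E-box starting 26 bases before the start): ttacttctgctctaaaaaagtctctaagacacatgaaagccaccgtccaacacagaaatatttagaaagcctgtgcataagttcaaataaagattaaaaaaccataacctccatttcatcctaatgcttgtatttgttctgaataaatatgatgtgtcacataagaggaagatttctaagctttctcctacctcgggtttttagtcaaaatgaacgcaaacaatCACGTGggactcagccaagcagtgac
Prkar2b (-1.42, chr12:32061278-32061527, minus strand, 80 bases before the start): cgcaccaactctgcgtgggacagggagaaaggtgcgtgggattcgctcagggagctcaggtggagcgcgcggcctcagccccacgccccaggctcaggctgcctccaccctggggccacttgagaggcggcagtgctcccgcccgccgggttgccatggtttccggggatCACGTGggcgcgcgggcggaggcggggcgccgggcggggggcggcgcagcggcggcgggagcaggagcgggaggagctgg
Slc25a1 (-0.94, chr16:17928220-17928469, minus strand, 239 bases before the start): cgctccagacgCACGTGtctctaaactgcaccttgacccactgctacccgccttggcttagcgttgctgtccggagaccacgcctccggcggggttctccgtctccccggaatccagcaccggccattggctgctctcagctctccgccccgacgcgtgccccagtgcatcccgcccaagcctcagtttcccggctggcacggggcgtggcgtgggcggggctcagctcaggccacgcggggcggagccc
Lipe (-0.93, chr7:25395988-25396237, minus strand, 155 bases before the start): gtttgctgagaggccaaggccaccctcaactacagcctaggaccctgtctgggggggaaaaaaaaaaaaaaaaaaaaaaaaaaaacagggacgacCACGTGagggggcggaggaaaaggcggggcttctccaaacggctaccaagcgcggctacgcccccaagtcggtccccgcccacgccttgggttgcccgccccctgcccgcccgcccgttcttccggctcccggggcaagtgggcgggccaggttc
The sequences around the motif differ in composition, and the one in Slc25a1 lies near the far end of the window. TATAAA, the TATA box, searched on both strands, was in 18.2% of the called-lower promoters and 15.4% of the called-higher. It was in 8.42% of the kept and in 14.3% of all 27025 promoters.

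Macrophage genes of old Myc+/- muscle also read lower. All 23 kept macrophage markers were below 0, 20 with arrays that did not overlap, and 4 were called, with a median of -0.45. Cd68, a lysosomal glycoprotein of macrophages, read 9.79, 9.71 and 9.72 in wild type and 9.16, 9.05 and 9.16 in Myc+/- (-0.62). Mrc1, the mannose receptor of tissue-resident macrophages, read 9.84, 9.65 and 9.96 against 9.33, 8.96 and 9.26 (-0.63). Ms4a7 differed by -0.66 and Adgre1, the F4/80 antigen, by -0.59. The growth factor receptor Csf1r (-0.40) and lysozyme Lyz2 (-0.37) were lower by less than 1.5-fold. The summed linear signal of the list was 18430 to 19660 in wild type and 13450 to 14260 in Myc+/-. In 5-month muscle the median of these markers was -0.02, and in the liver and adipose tissue of the same old mice it was 0.25 and -0.11.

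Complement genes moved with the macrophage markers. C4b, a component of the classical complement pathway, read 10.92, 10.89 and 11.01 in wild type and 9.99, 9.84 and 10.02 in Myc+/- (-0.99). The C1q subunit genes C1qc (-0.65) and C1qb (-0.59) and factor B, Cfb (-0.62), were called lower, and C1qa differed by -0.50. The acute phase genes Orm1 (-0.75), Hp (-0.66) and Serpina3n (-0.59) were called lower too. Of 13 kept genes of this list 7 were called lower and 1 higher, Hpx, which binds free haem and is made by the liver (1.15). The terminal complement gene C7 was above 0 as well, at 0.17 with arrays that did not overlap and no call.

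Chemokines were lower at a few genes rather than as a class. Ccl8, which attracts monocytes and other leukocytes, read 9.58, 9.58 and 9.70 in wild type and 8.28, 7.90 and 8.23 in Myc+/- (-1.49). Cxcl9, induced by interferon gamma, differed by -0.87 and the B cell chemokine Cxcl13 by -0.59, while Ccl2 differed by 0.07 and Cxcl10 by 0.18. The 12 kept cytokine and chemokine genes had a median of -0.11. Ifi27l2a, an interferon-induced gene, differed by -1.63, but only Cxcl9 was called among 20 kept interferon response genes (median -0.14). Antigen presentation genes were all 12 below 0 with none called (median -0.29), led by the class II chains H2-Ab1 (-0.54) and H2-Aa (-0.46). The Toll-like receptors Tlr8 (-0.73) and Tlr7 (-0.60), which sense RNA in endosomes, were called lower. Markers of other leukocytes gave no such count. Few of them passed the filter, 3 for T and NK cells (median -0.03), 2 for neutrophils (-0.26) and 6 for B and plasma cells (-0.03), with Igha, called higher, as the 1 call among them.

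**Figure D2:**
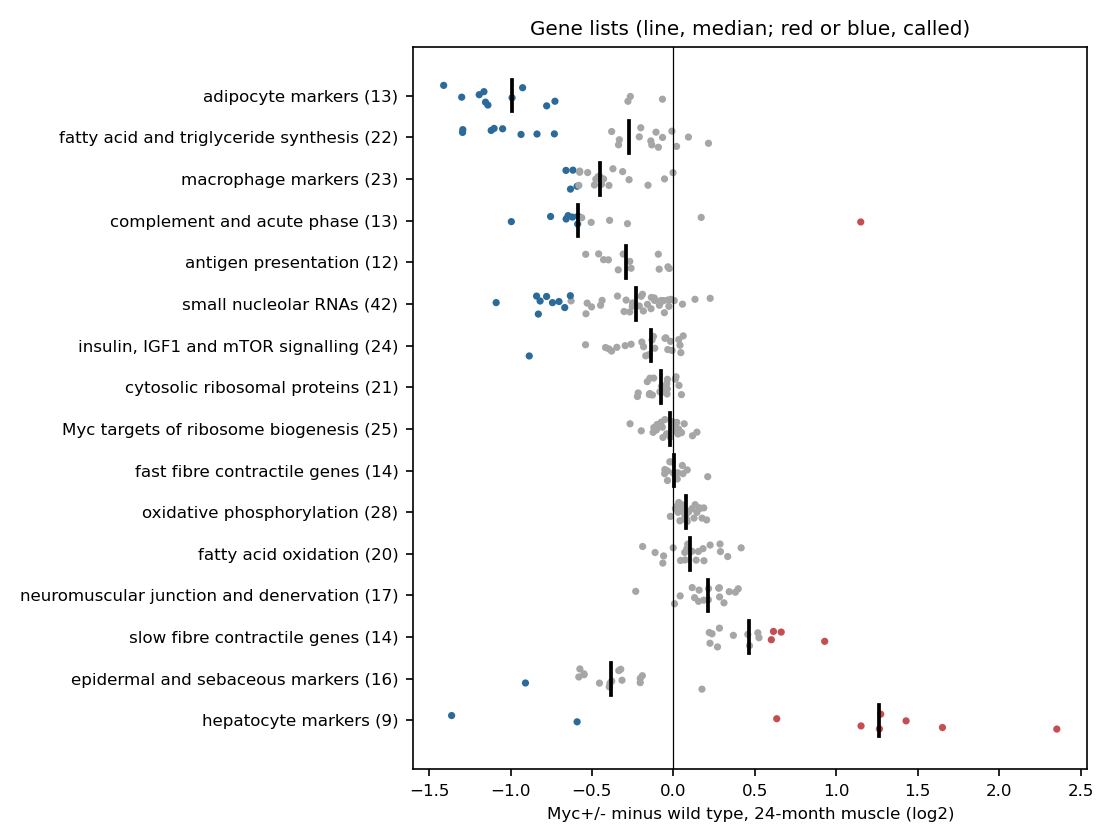
Difference between the Myc+/- and wild type pools of 24-month muscle (log2, horizontal axis) for the kept members of 16 lists, with the number of members in brackets. Each point is a gene, blue where called lower and red where called higher, and the black bar is the median of the list. Adipocyte markers lie at a median of -0.99, slow fibre genes at 0.46 and fast fibre genes at 0.00.

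Genes of growth hormone and insulin signalling were mostly a little lower. Of 24 kept genes of insulin, IGF1 and mTOR signalling, 20 were below 0 and 1 was called, with a median of -0.14. The called gene was Cish, a feedback inhibitor induced by STAT5, which read 9.48, 9.59 and 9.65 in wild type and 8.68, 8.58 and 8.81 in Myc+/- (-0.88). Cish was called lower in 5-month muscle as well (-0.65) and was at -0.48 in liver and -0.22 in adipose tissue of the old mice. Igf1, the growth factor downstream of growth hormone, read 11.18, 11.14 and 11.03 against 10.80, 10.53 and 10.41, and its difference of -0.54 was under 1.5-fold. Socs2, another feedback inhibitor of growth hormone signalling, differed by -0.40, the insulin receptor substrates Irs1 and Irs2 by -0.38 and -0.19, and the kinases Akt1, Akt2 and Mtor by -0.03 to -0.01. Socs3, a feedback inhibitor of cytokine signalling, was called lower (-0.61). In the 5-month wild type pools adipose tissue minus muscle was -1.20 for Cish, -0.74 for Socs2 and -0.45 for Irs1, and 1.67 for Igf1. The part of the fat in the samples in these readings was not tested.

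The protein genes most tied to Myc in the literature differed little. Of 25 kept Myc targets of ribosome biogenesis 0 were called, the median was -0.02, and the range ran from -0.27 for nucleophosmin (Npm1) to 0.14 for the RNA polymerase I subunit Polr1b. Nucleolin (Ncl) differed by -0.12 and fibrillarin (Fbl) by -0.00. Of 21 cytosolic ribosomal protein genes 0 were called and 17 were below 0, with a median of -0.07 (Rps9 -0.22). Among 21 other Myc targets in growth and metabolism 0 were called, Ccnd2, a G1 cyclin, was lowest (-0.40), and Odc1, the first enzyme of polyamine synthesis, was highest. Odc1 read up to 10.23 on the wild type arrays and 10.61, 10.56 and 10.54 on the Myc+/- arrays, a difference of 0.49 against the direction of Myc.

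Small nucleolar RNAs, many of which guide the chemical modification of ribosomal RNA, read lower instead. The class as counted here includes Scarna13 and Scarna17. Most small nucleolar RNAs are cut from introns of host genes, many of which encode ribosomal proteins. Of 42 kept small nucleolar RNAs 38 were below 0, 9 were called lower and 0 higher, with a median of -0.23. The median was -0.36 without wild type replicate 2 and -0.37 without Myc+/- replicate 3. Leaving out each array in turn gave medians from -0.37 to -0.16. This class was picked out after its values had been seen. Snora3 read 10.70, 10.77 and 10.67 in wild type and 9.52, 9.65 and 9.71 in Myc+/- (-1.09). Snord73b differed by -0.83, Snora73b by -0.82, Snora73a by -0.78, Scarna13 by -0.74 and Snora31 by -0.67. Snora16a (-0.84) and Snora44 (-0.70) lie within the same host gene, Snhg12. Near-identical copies such as Snora73a and Snora73b can share signal.

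Their host genes did not follow. Snora3 lies within Rpl27a, whose 9 probe sets differed by -0.14 to -0.07, Snord73b within Rps3a1 (-0.18) and Snora31 within Tpt1, whose 4 probe sets differed by 0.02 to 0.04. Of 22 small nucleolar RNAs whose containing gene was also kept, 17 were lower than that gene, with medians of -0.17 and -0.06, and 0 of the containing genes were called. The median of the 42 RNAs was below 0 in the other pairs of pools too, at -0.16 in 5-month muscle, -0.20 in 24-month liver and -0.35 in 24-month adipose tissue. It was -0.16 in 5-month liver and -0.09 in 5-month adipose tissue, where 28 of the 42 were below 0. Of the 42, 15 (35.7%) were below 0 in all 6 pairs of pools, against 2.81% of all kept probe sets. In 24-month muscle other noncoding classes did not read lower, as 60 probe sets of microRNA genes had a median of 0.09 and 194 of long noncoding RNAs 0.02. In the other pairs of pools the microRNA medians ran from -0.12 to -0.003, and those of long noncoding RNAs from -0.07 to 0.01. The sources used here do not say which of the 2 homogenization methods or labelling kits named in the labels a pool had, and the part of RNA handling in the readings of these short RNAs was not tested.

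**Figure D3:**
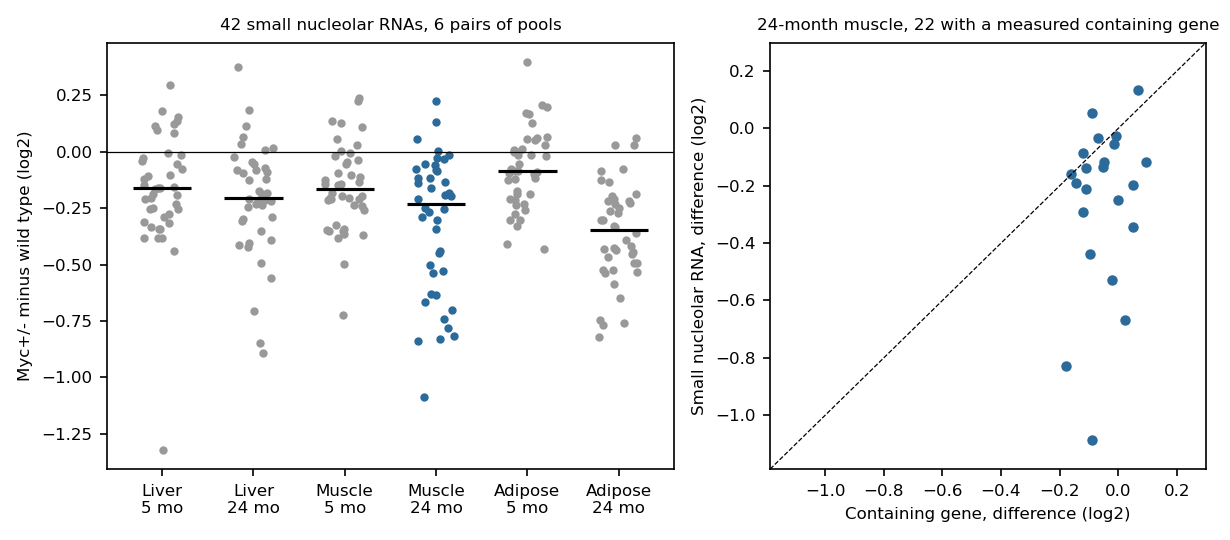
Left, difference between Myc+/- and wild type (log2) of the 42 small nucleolar RNAs in the 6 pairs of pools, each point an RNA, the bar the median, with 24-month muscle in blue (-0.23). Right, the difference of 22 small nucleolar RNAs in 24-month muscle (vertical axis) against that of the gene that contains them (horizontal axis), with a dashed line of equality, below which 17 lie.

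Slow fibre genes were the muscle genes that read higher. All 14 kept slow fibre contractile genes were above 0, 12 of them with arrays that did not overlap, and 4 were called, with a median of 0.46. Csrp3, the muscle LIM protein of the Z-disc, read 9.29, 9.39 and 9.39 in wild type and 10.34, 10.33 and 10.18 in Myc+/-, a difference of 0.93 or 190% of wild type. Ankrd2, a stretch-responsive titin-binding protein, read 11.66, 11.84 and 11.85 against 12.40, 12.45 and 12.49 (0.66). Myl3, the slow essential light chain, read 11.27, 11.28 and 11.43 against 11.94 on each Myc+/- array (0.61). Tnnc1, slow troponin C, read 10.48, 10.37 and 10.31 against 10.98 or more on each Myc+/- array (0.60).

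The rest of the slow sarcomere was higher by less than 1.5-fold. The regulatory light chain Myl2 differed by 0.53, slow troponin I (Tnni1) by 0.52, slow tropomyosin (Tpm3) by 0.47, the slow myosin heavy chain Myh7 by 0.37 and the calcium pump Atp2a2 by 0.28. The 2 members whose arrays overlapped were slow troponin T, Tnnt1 (0.27), and the calcium buffer Casq2 (0.22). Fast fibre genes showed no such pattern, with a median of 0.00 over 14 members, 7 on either side of 0 and none called. Myh4, the fastest myosin heavy chain, differed by -0.04, Myh1 by 0.08 and Myh2, the heavy chain of fast oxidative fibres, by 0.21. Among muscle genes outside the list, the actin nucleator Lmod2 (0.59) and the kinase Sbk2 (0.73) were called higher.

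At 5 months the slow genes read the other way, all 14 below 0 with a median of -0.22, in pools from other mice. Csrp3 was at 11.29 and 9.36 in the younger and older wild type muscle pools, and at 10.66 and 10.28 in the Myc+/- ones. Myl3 stood at 13.10 and 11.33 against 12.94 and 11.94, and Tnnc1 at 12.44 and 10.39 against 12.21 and 10.99. For these 3 genes the wild type pool of 24 months was the lowest of the 4, and the Myc+/- pool of that age lay below both 5-month pools. Ankrd2 differed from them, at 12.16 and 11.78 in wild type against 11.85 and 12.45 in Myc+/-, with the older Myc+/- pool the highest of the 4. The sources used here do not say whether the same muscle was sampled in each mouse. The tendon and cartilage gene Chad, a collagen-binding protein, moved with them, at 8.75, 8.63 and 8.81 in wild type and 9.93, 9.59 and 9.62 in Myc+/- (0.99), and at 11.80 and 11.33 in the 5-month pools. Of 15 fibroblast and tendon markers it was the 1 called, with Tnmd, tenomodulin of tendon cells, at 0.40 and a median of 0.03.

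**Figure D4:**
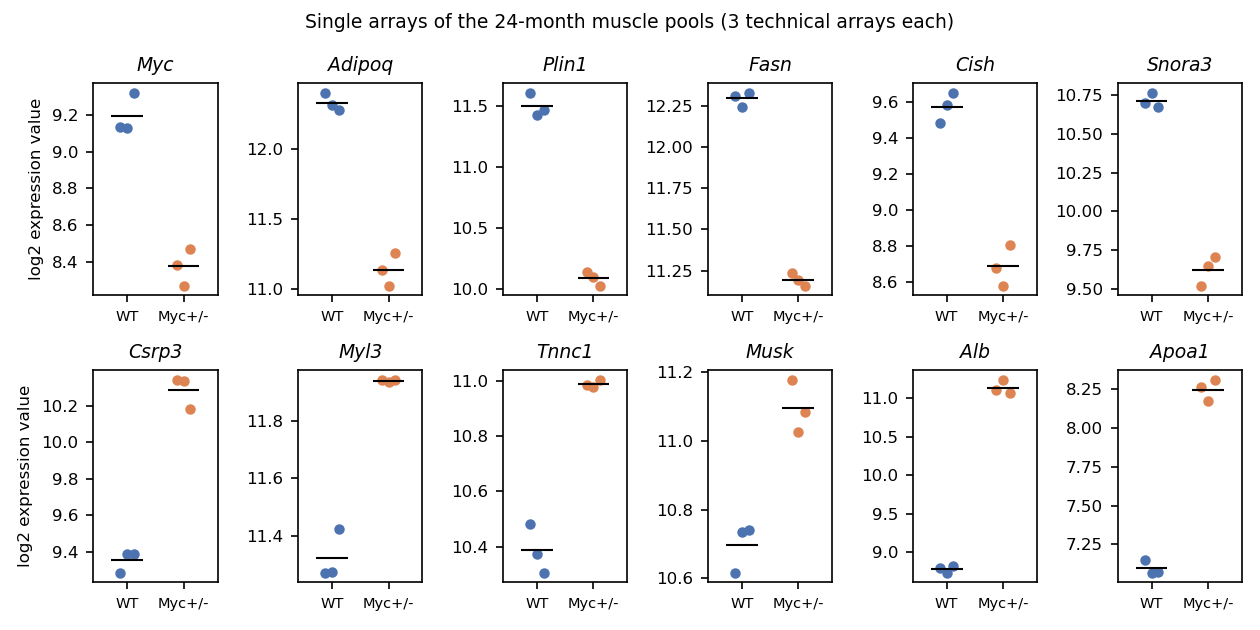
Log2 expression values of 12 genes on the single arrays of the 24-month muscle pools, wild type (WT, blue) and Myc+/- (orange), with a bar at the mean of the 3 technical arrays. Each panel has its own vertical axis, and the arrays of the pools do not overlap for any gene shown, from Myc (-0.82) to Alb (2.35).

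Genes of the neuromuscular junction and of denervation were slightly higher. Of 17 kept, 16 were above 0, 10 with arrays that did not overlap, and 0 were called, with a median of 0.21. Musk, the kinase that organizes the junction, read 10.62, 10.74 and 10.74 in wild type and 11.18, 11.03 and 11.08 in Myc+/- (0.40). Among acetylcholine receptor subunits, delta (Chrnd) differed by 0.38, epsilon (Chrne) by 0.34 and alpha (Chrna1) by 0.15, and Hdac4, a mediator of the denervation response, by -0.23. All 7 kept Schwann cell and nerve markers were above 0 (median 0.20, Cldn19 0.39), none called.

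Oxidative metabolism leaned the same way with small steps. Oxidative phosphorylation genes were above 0 for 27 of 28 kept members, with a median of 0.08 and the highest at the complex I subunit Ndufb8 (0.20), and none called. Fatty acid oxidation genes had a median of 0.10 (0.05 without wild type replicate 1) with 0 of 20 called, led by Pdk4, which spares glucose by blocking pyruvate dehydrogenase (0.42), and the muscle fatty acid carrier Fabp3 (0.33). Glycolysis genes had a median of 0.03. Trim63, the ubiquitin ligase MuRF1 of muscle wasting, read 11.47, 11.45 and 11.51 against 12.15, 11.94 and 11.97 (0.55), while Fbxo32, the wasting-related ligase atrogin-1, differed by 0.11. The small heat shock protein Hspb1 differed by 0.56, also under 1.5-fold.

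The largest higher readings were of genes that the liver makes. Alb, serum albumin, read 8.79, 8.73 and 8.82 in wild type and 11.11, 11.24 and 11.06 in Myc+/- (2.35). The apolipoprotein genes Apoa2 and Apoa1 differed by 1.27 and 1.15. Others were dim in wild type, where Ahsg (1.65), Mup3 (1.55), Pzp (1.52), Fgb (1.43), the carrier protein gene Ttr (1.26) and Hpx (1.15) lay below the filter level of 6.91. Serpina1c, an alpha-1 antitrypsin, read 4.91, 4.68 and 5.18 in wild type, below the lower quartile of those arrays (5.47 to 5.55), and 7.36, 6.87 and 7.64 in Myc+/-. The deposited values carry no detection call, so the size of such a difference is uncertain. Mup3, a major urinary protein gene, and Serpina1c belong to families of near-identical genes, whose signals may not be separable. Of 15 hepatocyte markers with a probe set, 9 passed the filter, 7 called higher and 2 lower, and over all 15 with no filter 12 were called higher and 2 lower (background with no filter 0.349% higher and 0.959% lower). The filter holds back dim genes, and among the 41 probe sets below it that passed the call rule upward were further liver genes, such as Fgg (5.49 to 7.35), the kininogen Kng1 and Fabp1.

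The 2 hepatocyte markers that were lower are also made elsewhere. Cyp2e1, an ethanol-oxidizing cytochrome P450, differed by -1.36 and Trf, transferrin, by -0.59, and in the 5-month wild type pools both stood higher in adipose tissue than in muscle, by 2.89 and 2.81. They dominate the summed linear signal of the list, which was 10830 to 11690 in wild type and 8686 to 9197 in Myc+/-. In 5-month muscle all 9 kept hepatocyte markers were below 0 in Myc+/-, with a median of -1.28 against 1.26 at 24 months. The median at 24 months was 0.34 with a 60th percentile filter, which leaves out dimmer probe sets. Apoa1 stood at 8.82 and 7.10 in the younger and older wild type muscle pools and at 7.54 and 8.25 in the Myc+/- ones, and Ttr at 9.01 and 6.78 against 7.74 and 8.05. In the liver and adipose tissue of the same old mice the median of the markers was 0.04 and 0.12. In 5-month adipose tissue it was 1.36, with 7 of the 9 above 0 in Myc+/-. How liver transcripts came to be in the muscle pools was not tested.

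**Figure D5:**
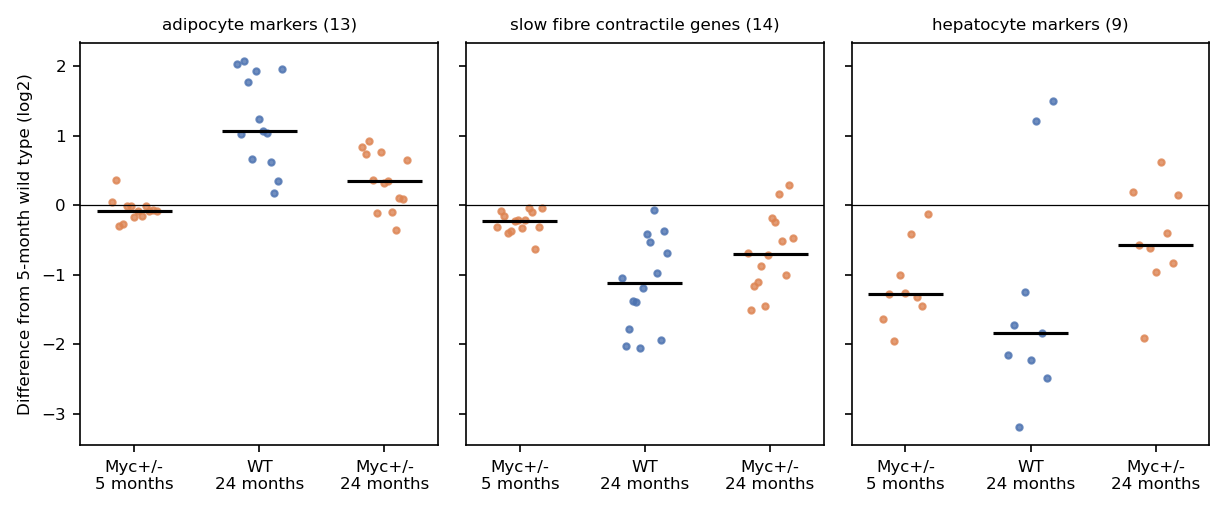
Difference of 3 muscle pools from the 5-month wild type (WT) muscle pool (log2, vertical axis) for adipocyte markers, slow fibre contractile genes and hepatocyte markers, each point a kept gene and the bar the median. Within each panel the order is Myc+/- at 5 months, wild type at 24 months and Myc+/- at 24 months, and all differences share the 5-month wild type pool as reference.

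Antibody genes differed in both directions. The kappa light chain segments Igkv19-93 and Igkv10-96 differed by 2.18 and 2.02, and Igkv6-20 by -2.15. A second Igkv19-93 probe set, below the filter, differed by 0.09, so the signal of this segment depends on the probe set. Igkv10-96 was at 8.41, 8.39 and 8.36 in wild type and 10.39, 10.33 and 10.52 in Myc+/-, and below the filter level of 6.91 in both 5-month muscle pools (5.98 and 5.97). Igha, the constant region of immunoglobulin A, read 7.96, 8.01 and 8.03 against 9.21, 9.18 and 9.10 (1.16), while the plasma cell genes Jchain and Mzb1 differed by 0.25 and -0.04. In the liver of the same mice these higher genes ran the other way, with Igha at -1.29, and in adipose tissue Igha was at 1.14. Each pool held few mice, and single animals could not be told apart.

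Skin genes were lower, as they were in the younger mice. Of 16 kept epidermal and sebaceous markers 15 were below 0, with a median of -0.38 (-0.95 at 5 months), and 1 was called, the defensin Defb6 (-0.91). The skin keratins Krt17 and Krt5 differed by -0.58 and -0.39, and the summed linear signal of the list was 10930 to 12160 in wild type and 8505 to 9197 in Myc+/-. The part of skin carried over in dissection was not tested. Elovl4 (-0.55) and other lipid genes of sebaceous glands are on this list.

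Other groups held no or few calls. Endothelial and mural markers had a median of -0.01 over 15 genes, collagen and matrix genes -0.05 over 27 (Postn, periostin, -0.50) and clock genes 0.04 over 18, with 0 called in each. Genes of p53 and senescence (0.01), excitation-contraction coupling (0.05), developmental myosins and regeneration (0.07), antioxidant defence (-0.03) and immediate early response (0.02) also had 0 called. In the list of heat shock and the unfolded protein response, Asns, asparagine synthetase, was the 1 called (-1.03), with Psat1, of serine synthesis, at -0.66 outside the list, while their activator Atf4 differed by 0.00. Of 16 proliferation genes 5 passed the filter, with a median of -0.02. Medians this near 0 moved with single arrays, for example that of developmental myosins up to 0.15, of clock genes down to 0.01 and of matrix genes down to -0.10 with 1 array left out.

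Few of the lower calls were called lower in another pair of pools, 1.21% to 4.85% of those kept in both. Each of these shares lay above the share of all kept probe sets called lower in that pair (0.0841% to 0.734%). In liver at both ages and in 5-month adipose tissue, more of them were called higher than lower. The higher calls recurred mainly in 5-month adipose tissue and to a lesser part in 24-month adipose tissue. Shares in brackets below are over the 13073 probe sets kept in the other tissue, while overlaps count only those kept in both tissues. Of 11859 kept in muscle and liver, 66 were called lower and 83 higher in 24-month liver, and 6 and 22 in 5-month liver. Of 12235 kept in muscle and adipose tissue, 49 were called lower and 46 higher at 24 months, and 19 and 91 at 5 months. In 5-month muscle, where 53 probe sets were called lower (0.405%) and 3 higher (0.0229%), 4 were called lower at both ages, Ces1f, Cyp2f2, Defb6 and Cish, which is 2.40% of the 167 and 7.55% of the 53. None was called higher at both ages. Of the 35 called higher at 24 months, 14 (40%) were called lower at 5 months (26.4% of the 53), of which Csrp3 and the angiopoietin-like gene Angptl7 (0.74) were not liver genes. In 24-month liver of the same mice (0.734% called lower, 1.07% higher) the shared lower calls were Acaca, Pnpla3, Snora16a, Snora73a and Snora73b. They were 5 of 130 (3.85%), or 7.58% of 66. Called higher there were 6 of the 130, and 3 of 22 higher calls were called lower there. In 24-month adipose tissue (0.643% called lower, 0.581% higher) the shared lower calls were 8 of 165 (4.85%), or 16.3% of 49. Among them were Myc, Rgs2, a regulator of G protein signalling, and 4 small nucleolar RNAs. Called higher there were 5 of the 165. Of 21 higher calls 4 (19.0%) were called higher there too, Igha, Mup3, Serpina1c and Ttr, and 2 were called lower. Slc15a5, of a peptide transporter family, was called higher in muscle (0.75) and liver (0.59), and stood at 0.81 in adipose tissue. In 5-month adipose tissue (1.12% called higher, 0.26% lower), 14 of the 21 higher calls kept in both tissues (66.7%) were called higher as well, 12 liver genes with Igha and Igkv10-96, which is 15.4% of the 91 higher calls there among probe sets kept in both. Of the lower calls 2 of 165 (1.21%) recurred there, Cyp2f2 and Fam13a, or 10.5% of 19, and 6 of the 165 were called higher. In 5-month liver (0.367% called higher, 0.0841% lower) the shared lower calls were Myc and Scarna13, 1.54% of 130 and 33.3% of 6. Called higher there were 4 of the 130, and 0 higher calls were shared.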

How the data were processed

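RNA of 5 to 8 male mice was pooled in equal amounts per genotype, age and tissue, and each of 12 pools was run on 3 Affymetrix Mouse Gene 1.0 ST arrays, per the labels. The authors deposited log2 expression values per probe set, and the submitters' processing notes name Affymetrix Expression Console and RMA, with no version or settings given. One label names a 3' IVT kit and another a whole-transcript kit, so the labelling chemistry is not settled. These values were not normalized again.

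The platform annotation names 23410 of the 35556 probe sets, 21789 with 1 symbol and 1621 with several, and 12146 are unnamed here. Entrez identifiers of 21698 were found in RefSeq (GRCm38.p6), which changed 0 symbols. The arrays of a pool were averaged (Python 3.11.15, pandas 2.3.3, numpy 2.4.6), and differences are Myc+/- minus wild type. With 1 pool per genotype there is no test between genotypes, and the number of arrays limits only the technical precision. A limma fit (version 3.58.1, R 4.3.3) to the single arrays, whose error is array-to-array only, was an alternative, and all 202 called probe sets passed it at an adjusted p under 0.05. On simulated data of 13073 probe sets the call rule found 199 of 200 probe sets shifted 2-fold and called 5 of the others. The simulated noise had the measured array SD, was independent between arrays and held no spread between mice. It therefore gives no rate of false calls between genotypes.

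Arrays of the same number deviated together across the genotypes, with correlations of their deviations from the pool means of 0.22, 0.49 and 0.16. Of the 3 wild type arrays, 2 correlated best with the Myc+/- array of their own number. The number was treated as pairing the arrays in an alternative fit. The labels do not say what the number stands for.

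The comparison and the 43 lists of known genes (801 entries without the small nucleolar RNAs, 736 matched) were chosen with earlier results of these data known. The rule for named genes took the 15 largest called differences in each direction, up to 4 members per list with the largest difference, Myc, and the members of cell type lists. A gene was represented by its probe set with the highest mean over the 12 muscle arrays. Other named genes and the class of small nucleolar RNAs were chosen after their values were seen. Alternatives tried were other filters and fold minimums, another normalization or centring of the 6 arrays, the median of a pool's arrays, the limma fits and leaving out each array. Promoter sequences came from RefSeq.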

Additional observations from a re-analysis of the deposited data

Results flagged for a closer look

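The genes below differed between genotypes in opposite directions in muscle at 24 months and at 5 months, with no overlap of the arrays at either age. Whether the difference between the ages exceeds the spread between mice was not tested, since each age and genotype had 1 pool. Most are made by the liver. Alb differed by 2.35 at 24 months and -1.63 at 5 months, and Ahsg by 1.65 and -1.45. Serpina1c differed by 2.36 and -1.98, sizes that are uncertain because its wild type signal at 24 months (4.92) lay below the lower quartile of the arrays. Mup3 differed by 1.55 and -1.58, Pzp, a protease-binding plasma protein, by 1.52 and -1.36, and Fgb, a fibrinogen chain, by 1.43 and -1.31. Apoa2 differed by 1.27 and -1.95, Ttr by 1.26 and -1.27, Apoa1 by 1.15 and -1.28, and Hpx by 1.15 and -1.35.

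Csrp3, the Z-disc protein of slow fibres, was the muscle gene among them, at 0.93 at 24 months and -0.63 at 5 months.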

How the results depend on the processing

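Each choice was changed alone. The count of probe sets called higher (35) was 76 with no filter on dim probe sets and 17 with a 60th percentile filter. With a fold minimum of 1.3 the counts were 111 higher and 410 lower, and with a fold minimum of 2 they were 13 and 48. The filter sets which probe sets are counted, and 41 below it passed the call rule upward. Why many of the higher calls were dim was not tested. The fold minimum changes the count by its construction. The other alternatives kept both counts within 1.5 times. Leaving out 1 array at a time gave 33 to 40 higher, 143 to 191 lower, and a difference in Myc of -0.87 to -0.76. Quantile normalizing the 6 arrays again gave 38 higher and 132 lower.

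The fit with the array number as a replicate block gave 35 higher and 168 lower at an adjusted p under 0.05 (limma), and without the block 35 and 167, so the pairing changed neither count by over 1.5 times. With no minimum fold, 1147 probe sets passed with the block and 645 without it. Of 1431 values of named genes under these alternatives 3 moved by more than the spread between arrays, and none of a called gene changed sign. Of 481 values of list medians 61 moved by more than that spread. The median of the hepatocyte markers moved most by the 60th percentile filter (0.34). Of 44 list medians 15 changed sign under at least 1 alternative, all between -0.11 and 0.04 as reported. Signal near the filter level limits the dim liver and antibody genes, and no alternative can stand in for a second pool per genotype.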

Other observations

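Below the filter on dim probe sets, 42 probe sets passed the call rule downward, several of them fat cell genes. Ucp1, the uncoupling protein of brown and beige fat cells, read 7.44 in the wild type pool and 5.52 in the Myc+/- pool (-1.92), and Cidea, a lipid droplet protein of those cells, differed by -1.20. Arxes2 and Arxes1, genes of fat cell formation, were at 7.62 and 6.68 in wild type and at 5.45 and 4.80 in Myc+/-, and like Ucp1 lay below the lower quartile of the Myc+/- arrays, so the size of these differences is uncertain. The niacin receptor gene Hcar2 differed by -1.07. The 5 brown adipocyte markers that passed the filter had 0 calls, with Otop1 at -0.28, Kcnk3 at -0.14, Prdm16 at -0.06, Ppargc1a at -0.03 and Cox8b at 0.08.

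The further called lower genes given here were chosen after their values were seen. Hoxc8, a positional homeobox gene, read 9.80 in the wild type pool and 8.49 in the Myc+/- pool (-1.31), and stood 4.04 higher in adipose tissue than in muscle in the 5-month wild type pools. Tbx1, a T-box factor, was at 9.64, 9.73 and 9.61 in wild type and 8.59, 9.11 and 9.07 in Myc+/- (-0.73), and was lower in adipose tissue than in muscle (-1.52) in the 5-month wild type pools. The growth factor gene Fgf10 differed by -0.77 and the Wnt modulator Dkk3 by -0.97. Nnat, an imprinted gene, differed by -0.99.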
